A study of Mus musculus with 64 samples.

Results

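A list of 10 genes chosen for resident cardiac macrophages was followed in purified cell populations of the mouse heart. It held Timd4, Lyve1, Folr2, Cd163, Cbr2, Mrc1, Mgl2, Retnla, Cd163l1 and Csf1r. Not all are particular to these cells, as most macrophages express Csf1r and Mrc1, and gamma delta T cells express Cd163l1. The genes were taken by symbol from the deposited table, which lists 20637 genes, and 10 of 10 were found. RNA-seq had been made from 4 populations of CD1 mouse hearts, 2 ages and 2 operations, which gives 16 groups of 4 libraries and 64 libraries in all. The ages were the day of surgery, postnatal day 1 (P1) or postnatal day 56 (P56), and hearts were taken 3 days after surgery to cause myocardial infarction (MI; in adults by tying off the left descending coronary artery) or after a sham operation without it. Leukocytes were sorted as CD45+ cells, endothelial cells as CD31+ and CD45- cells, and fibroblasts as CD90+ cells that lacked CD45 and CD31, while cardiomyocytes were the dense layer of a Percoll gradient and were not sorted. All animals were of the CD1 strain and carried no transgene or mutation that the labels name. Neonatal ventricles were digested in pools of 6 with Liberase in a cell stirrer, whereas adult hearts came from males and were perfused with the enzyme through the aorta, so age, sex and way of isolation cannot be told apart in any comparison of the ages. The labels do not say whether replicates came from separate animals or pools, so every p-value here measures the spread between these libraries.

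Resident macrophages of the heart are seeded before birth and maintain themselves in part by local division, while other cardiac macrophages are replaced by blood monocytes. In the healthy heart they take up dying cells, haemoglobin and debris, and after infarction monocytes enter the tissue in large numbers. TIMD4 binds phosphatidylserine on dying cells, LYVE1 binds hyaluronan, FOLR2 binds folate, CD163 takes up haptoglobin-haemoglobin complexes, and MRC1 and MGL2 are lectins that bind sugar chains. CBR2 is a carbonyl reductase, RETNLA is a secreted protein induced by interleukin-4 and interleukin-13, and CSF1R is the receptor through which CSF1 and interleukin-34 keep macrophages alive. Several of these genes are used by other cells as well: Lyve1 also marks lymphatic endothelium, and mouse Cd163l1, known too as Scart1, is expressed by gamma delta T cells.

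Values are normalised counts-per-million (CPM), so a level is relative to all the RNA of its library. The 64 libraries held 9587106 to 27541094 recovered reads and the leukocyte libraries 11494135 to 24691646, so 3 reads, used as the floor for a value near 0, corresponded to 0.102 to 0.409 CPM. In 7 libraries more than 5% of reads came from 18S ribosomal RNA, among them leukocyte P1 sham replicate 4 and P56 MI replicate 1. Leukocyte P1 sham replicate 4, both P1 endothelial libraries of replicate 4 and both P56 cardiomyocyte libraries of replicate 3 stood apart from the rest of their groups. For endothelial cells and cardiomyocytes, some results that rest on them are given with and without them. For leukocytes, leaving out any 1 library kept all 10 genes called between sham ages, for MI at P1 and for the difference of the MI effects. The leukocyte values below include that library. Ptprc, which encodes CD45, averaged 372 CPM in P1 sham, 815 in P1 MI, 522 in P56 sham and 796 in P56 MI leukocytes. The leukocyte libraries also carried RNA of other heart cells: 12 cardiomyocyte genes summed to 18311 to 24058 CPM in P1 sham, 5502 to 15208 in P1 MI, 74717 to 205385 in P56 sham and 5151 to 18824 in P56 MI. Of the P56 sham leukocyte libraries, replicate 1 held the 205385 CPM of cardiomyocyte genes, and its 12 macrophage genes summed to 2751 CPM, the lowest of that group, whose highest was 5920.

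In the GRCm38 annotation 3 of the genes are on chromosome 11: Timd4 at chr11:46810800-46844332, Mgl2 at chr11:70130329-70137550 and Cbr2 at chr11:120729489-120732114. Chromosome 7 carries Lyve1 (chr7:110850607-110862953), Folr2 (chr7:101839990-101845331) and Cd163l1 (chr7:140218267-140231145). Of the other genes, Cd163 is at chr6:124304656-124330527, Mrc1 at chr2:14229392-14332057 and Retnla at chr16:48842552-48844461. Mgl2 lies beside its near-identical copy Clec10a (chr11:70156197-70170834), so reads of one may have been given to the other. Folr2 overlaps the antisense gene Gm10602 and the end of Csf1r overlaps Hmgxb3 on the other strand. The libraries were stranded, but whether reads were counted by strand is not stated in the labels, so reads of such overlapping pairs may not be told apart.

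Stretches of 3 promoters are shown with their matches to 3 chosen short motifs, as a description of the sequence. They come from RefSeq sequences of GRCm38.p6 and are cut before the annotated transcript. Windows of 250 bases upstream of the gene start were searched for 8 of 10 members (9 windows), which leaves out Lyve1 and Csf1r. Capitals mark matches on either strand to GAGGAA, a PU.1-type core (read as TTCCTC on the other strand), to TGCTGA, a MAF half-site (TCAGCA on the other strand), or to a STAT6-type site, which is TTC and GAA set 4 bases apart. No match in these stretches overlapped another motif. Timd4 (chr11:46810549-46810798, plus strand) held 2 of TGCTGA, Mrc1 (chr2:14229164-14229391, plus strand) 3 of GAGGAA, and Retnla (chr16:48842359-48842551, plus strand) 1 of GAGGAA and 1 STAT6-type site.
Timd4: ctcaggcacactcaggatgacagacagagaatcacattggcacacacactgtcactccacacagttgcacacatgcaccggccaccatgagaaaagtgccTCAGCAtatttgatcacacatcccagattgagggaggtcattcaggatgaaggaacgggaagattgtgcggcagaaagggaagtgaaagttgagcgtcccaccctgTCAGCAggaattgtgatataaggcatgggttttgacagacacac
Mrc1: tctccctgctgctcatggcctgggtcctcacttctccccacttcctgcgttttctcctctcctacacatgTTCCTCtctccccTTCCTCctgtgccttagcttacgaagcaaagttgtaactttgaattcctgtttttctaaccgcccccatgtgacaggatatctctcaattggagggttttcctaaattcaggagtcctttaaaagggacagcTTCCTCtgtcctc
Retnla: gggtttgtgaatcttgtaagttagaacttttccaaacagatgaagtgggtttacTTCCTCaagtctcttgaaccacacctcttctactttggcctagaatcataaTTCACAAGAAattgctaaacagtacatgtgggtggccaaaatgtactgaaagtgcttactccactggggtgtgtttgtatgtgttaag
Over the full windows, GAGGAA was found in 4 of the 8 members searched (Cbr2, Mrc1, Mgl2 and Retnla), TGCTGA in 3 (Timd4, Folr2 and Retnla) and the STAT6-type site in 1 (Retnla). The windows of Cd163 and Cd163l1 held none of these letters. Of 32851 windows of the same length over all genes, 23.3% held GAGGAA, 16.1% TGCTGA and 5.85% the STAT6-type site, so a match is a description of the letters and not a binding site.

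Across the 16 groups, the highest mean of each of the 10 genes was in a leukocyte group. P56 sham leukocytes had the highest mean of all groups for 9 genes, and for Cd163l1 the P1 MI leukocytes did. A gene was counted as enriched in leukocytes where its mean was at least 2-fold (log2 of 1) above that of each of the other 3 populations at the same age and operation. In P1 sham, 8 of 10 genes were enriched, beside 5.75% of the 18343 genes with at least 1 CPM in 4 of the 64 libraries. The exceptions were Retnla and Cd163l1, whose leukocyte levels lay 0.09 and 0.32 above the next population on the log2 scale. After MI at P1 all 10 were enriched (8.95% of genes), as were all 10 in P56 sham (6.32%). In P56 MI, 9 of 10 were enriched (7.43% of genes), and the exception was Cbr2, which was only 0.65 above cardiomyocytes on the log2 scale. The population next to the leukocytes by fitted log2 mean was the endothelial one for Lyve1 in all 4 conditions (in P56 MI the plain mean of 21.8 CPM in fibroblasts was above the endothelial 20.2) and the cardiomyocyte fraction for most other genes.

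**Figure D1:**
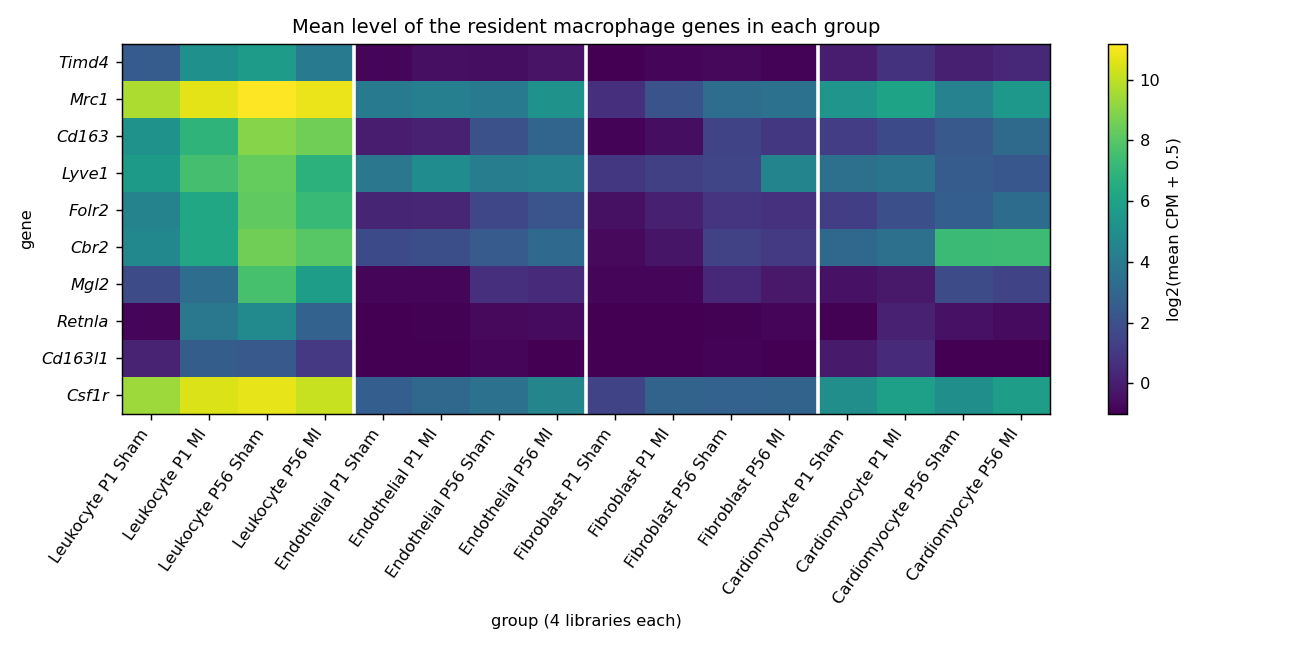
Heat map of log2(mean CPM + 0.5) for the 10 genes (rows) in the 16 groups (columns; population, age at surgery and operation), each a mean of 4 libraries. The leukocyte columns hold the highest value of each gene, and Cbr2 is also high in both P56 cardiomyocyte groups (means of 159 and 164 CPM).

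Per kilobase of gene length, which allows levels of different genes to be compared, Csf1r and Mrc1 led in the leukocytes, and Cd163l1 was lowest in all groups but P1 sham, where Retnla was lowest. In P56 sham, Csf1r reached 434 CPM per kilobase, Mrc1 431, Cbr2 334 and Folr2 269.5, ahead of Mgl2 at 125, Lyve1 at 122 and Cd163 at 114. Retnla at 47.3, Timd4 at 23.3 and Cd163l1 at 1.38 CPM per kilobase were the lowest there. In P1 sham, Csf1r at 175 and Mrc1 at 151 CPM per kilobase were followed at a distance by Cbr2 at 22.6, Folr2 at 20.0, Lyve1 at 18.9 and Cd163 at 8.56, while Timd4 stood at 2.45, Mgl2 at 1.85, Cd163l1 at 0.19 and Retnla at 0.10. Csf1r and Mrc1, which most macrophages express, thus made up a larger share of the set in neonatal than in adult leukocytes.

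In the leukocytes, the MI effect on these genes as CPM ran in opposite directions at the 2 ages. All 10 genes were higher in P1 MI than in P1 sham leukocytes (median log2 fold change 1.69 over the genes and -0.01 over all 16238 genes tested), beside 22.6% of genes called higher, but with scaling to 15 general leukocyte genes 5 were called (median 0.46) and with scaling to 12 general macrophage genes 3 (median 0.32), and Mrc1 and Csf1r turned below 0 under both. Under these scalings 86.5% and 89.4% of all genes were called in either direction, with medians over all genes of -1.14 and -1.29. The share called higher was not counted, so the 5 and 3 have no like share beside them. At P56, 7 of 10 were lower after MI (median -1.15 against 0.02 over all genes), beside 28.8% of genes called lower. The difference of the MI effects, P56 minus P1, was below 0 for all 10 (median -3.00), beside 21.5% of genes. Between the ages in sham, all 10 were higher at P56 (median 3.40), beside 32.5% of genes called higher. Retnla (at most 0.126 CPM) and Cd163l1 (at most 0.817 CPM) were below 1 CPM in every P1 sham library. They passed the filter on low values only through other groups, which favoured their being higher there than in P1 sham. Their calls against P1 sham, and their part in these counts, are description only. These come from 1 limma fit of log2(CPM + 0.5) on the 16 leukocyte libraries with p-values adjusted over all genes tested. The comparisons share sham libraries, so they are set side by side and do not support one another. In bulk RNA, fewer cells of a type and less RNA per cell cannot be told apart.

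**Figure D2:**
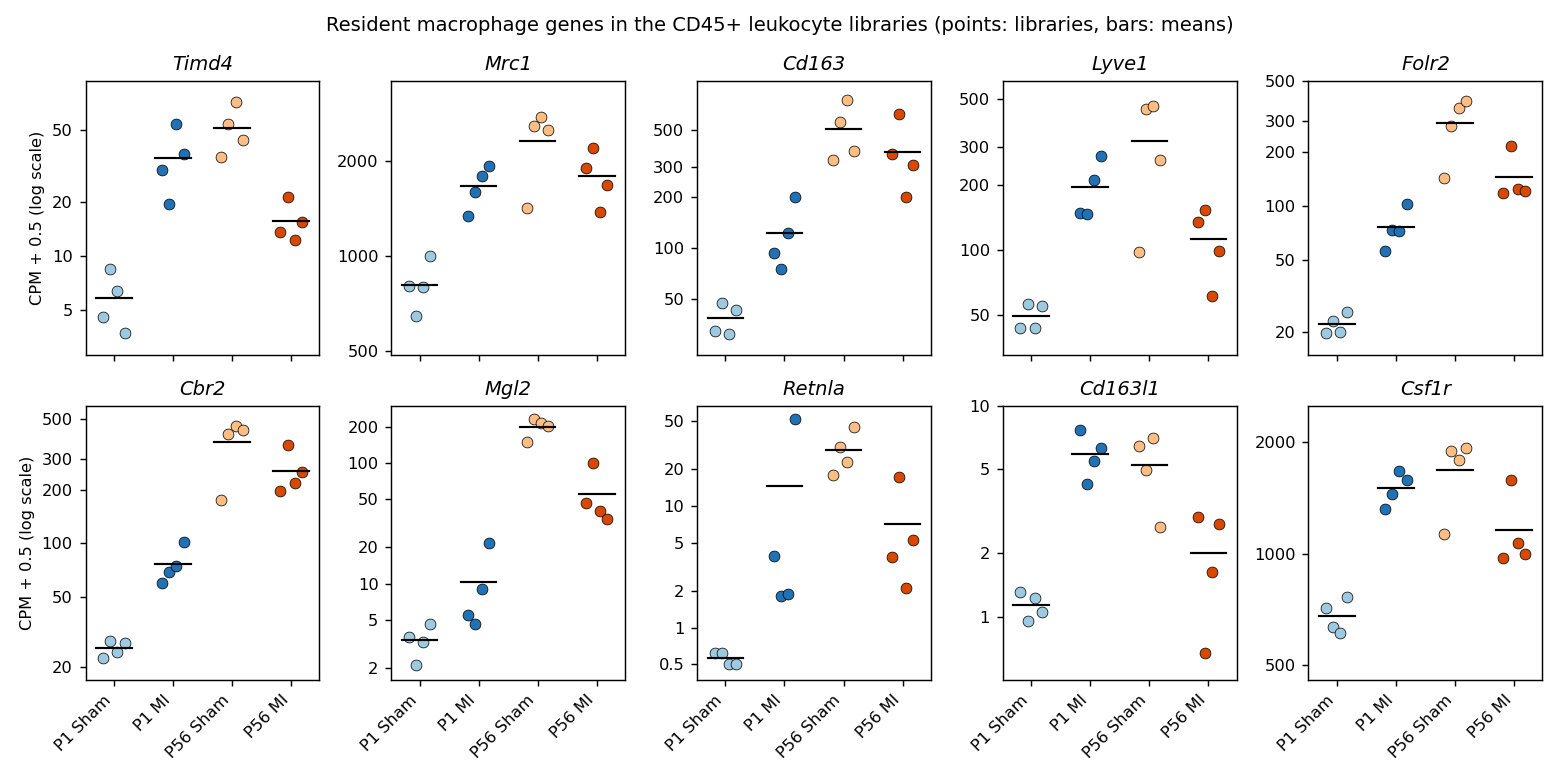
CPM + 0.5 on a log axis for each of the 10 genes in the 4 leukocyte groups; points are libraries and bars are means of 4. As CPM, the P1 MI libraries lie above the P1 sham libraries in all panels but that of Mgl2, where the ranges overlap (scaled to leukocyte or macrophage genes, Mrc1 and Csf1r turn), whereas the P56 MI libraries lie below or among the P56 sham libraries.

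The surface receptors Timd4, Lyve1 and Folr2, which mark the self-maintaining cells, rose with MI at P1 and fell with MI at P56 as CPM. Scaled to macrophage genes, Timd4 was still called higher at P1 (1.25) while Lyve1 (0.55, adjusted p = 0.11) and Folr2 (0.41, 0.0648) were not. Timd4 stood at 4.08, 8, 5.92 and 3.25 CPM in the 4 P1 sham libraries and at 29.6, 19, 53.4 and 36.3 CPM after MI at P1, with no overlap between the groups. At P56 it stood at 34.9, 53.5, 71 and 43.1 CPM in sham and at 13.1, 20.8, 11.7 and 14.9 CPM after MI, again without overlap and now with MI below sham. The log2 fold change of MI over sham for Timd4 was 2.57 ± 0.31 (adjusted p = 7.08e-06) at P1 and -1.69 ± 0.31 (adjusted p = 0.000193) at P56, and the difference between the ages was -4.26 ± 0.43 (adjusted p = 3.22e-06). Among MI hearts Timd4 was thus lower in adult than in neonatal leukocytes, at -1.10 ± 0.31 (adjusted p = 0.0157), although it was 3.16 ± 0.31 higher in adults among sham hearts (adjusted p = 2.05e-07). Without P1 MI replicate 3, the highest library of its group, the former was -0.86 and not called (adjusted p = 0.0566).

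Lyve1 was measured at 43.1, 56.1, 43.2 and 55 CPM in P1 sham and at 148, 146, 211 and 273 CPM in P1 MI, so the lowest MI library was well above the highest sham library. In P56 sham it was at 97.5, 448, 465 and 261 CPM and in P56 MI at 135, 153, 60.7 and 98.9 CPM. Here the groups overlapped through sham replicate 1, the library with most cardiomyocyte RNA. MI changed Lyve1 by 1.93 ± 0.40 (adjusted p = 0.00103) at P1 and by -1.35 ± 0.40 (adjusted p = 0.0085) at P56 on the log2 scale, with a difference of -3.28 ± 0.57 (adjusted p = 0.000305). Between the ages Lyve1 was 2.45 ± 0.40 (adjusted p = 5.32e-05) higher in P56 sham than in P1 sham, and in MI it was -0.83 ± 0.40 with an adjusted p of 0.151, which became 0.0333 when P56 sham replicate 1 was left out of the fit. Folr2, the folate receptor, was at 19.2, 22.4, 19.3 and 25.2 CPM in P1 sham and at 56.1, 73.4, 72.6 and 102 CPM in P1 MI, with every MI library above every sham library. P56 sham libraries held 143, 279.9, 355 and 385 CPM of Folr2 and P56 MI libraries 118, 218, 125 and 121 CPM. The groups overlapped, since sham replicate 1 was below MI replicate 2. The MI effect on Folr2 was 1.77 ± 0.27 (adjusted p = 7.48e-05) at P1 and -0.95 ± 0.27 (adjusted p = 0.0067) at P56, and the difference -2.73 ± 0.38 (adjusted p = 5.84e-05). Unlike Timd4, Folr2 was higher at P56 than at P1 in sham (3.64 ± 0.27 (adjusted p = 1.3e-08)) and also in MI (0.91 ± 0.27 (adjusted p = 0.0228)). The call in MI was lost without P1 MI replicate 1 (0.78, adjusted p = 0.0791) or P56 MI replicate 2 (0.70, adjusted p = 0.0726).

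Cd163, the haemoglobin scavenger receptor, and Mrc1, the mannose receptor, rose with MI at P1 as CPM but did not pass the test at P56. The P1 call was lost for both when scaled to leukocyte or macrophage genes, with Cd163 at 0.37 (adjusted p = 0.282) and 0.23 (0.505) and Mrc1 turned to -0.21 (0.351) and -0.35 (0.0993). Cd163 was at 31.8, 46.3, 30.3 and 42.3 CPM in P1 sham and at 93.3, 74.9, 122 and 199 CPM in P1 MI, without overlap. In the adult it was at 332, 558, 749 and 373 CPM in sham and at 357, 618, 200.4 and 308 CPM after MI, and these ranges overlapped widely. Its MI effect was 1.61 ± 0.34 (adjusted p = 0.00117) at P1 and -0.48 ± 0.34 (adjusted p = 0.237) at P56, with a difference of -2.09 ± 0.48 (adjusted p = 0.00252). Cd163 was higher at P56 than at P1 both in sham, by 3.67 ± 0.34 (adjusted p = 1.27e-07), and in MI, by 1.58 ± 0.34 (adjusted p = 0.00319). Mrc1 was abundant throughout: 801, 645, 799 and 997 CPM in P1 sham and 1337, 1589.5, 1791 and 1929 CPM in P1 MI, again without overlap. At P56, Mrc1 stood at 1415, 2579.8, 2758 and 2503 CPM in sham and at 1902, 2204, 1377 and 1680.1 CPM in MI, where all MI libraries fell inside the sham range except replicate 3. The MI effect on Mrc1 was 1.04 ± 0.23 (adjusted p = 0.00144) at P1 and -0.34 ± 0.23 (adjusted p = 0.201) at P56. The latter was -0.57 and called (adjusted p = 0.0174) without P56 sham replicate 1. The difference of the MI effects on Mrc1 was -1.38 ± 0.32 (adjusted p = 0.00255) and its difference between sham ages 1.48 ± 0.23 (adjusted p = 2.58e-05). In MI the ages gave 0.10 ± 0.23 (adjusted p = 0.791), a value whose sign turned (-0.0066, adjusted p = 0.988) without P56 MI replicate 2.

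Mgl2, a galactose-binding lectin, was higher in adult than in neonatal sham leukocytes and fell after MI in the adult. Its P1 sham libraries held 3.11, 1.63, 2.81 and 4.15 CPM and its P1 MI libraries 5.02, 4.13, 8.58 and 21.2 CPM. The lowest MI library was just below the highest sham library, and replicate 4 was far above the other MI libraries. P56 sham libraries held 148, 229.6, 214 and 203 CPM and P56 MI libraries 46.4, 98.7, 39.5 and 33.8 CPM, with no overlap. The log2 fold changes of Mgl2 were 5.90 ± 0.41 (adjusted p = 6.1e-09) between sham ages, 1.35 ± 0.41 (adjusted p = 0.0134) for MI at P1, -1.97 ± 0.41 (adjusted p = 0.000656) for MI at P56 and -3.32 ± 0.58 (adjusted p = 0.000333) for the difference. The P1 value was not called when scaled to leukocyte (0.24, adjusted p = 0.567) or macrophage genes (0.12, 0.768). In MI hearts Mgl2 remained higher in adults, at 2.58 ± 0.41 (adjusted p = 0.000302). Its neighbour Clec10a, whose reads may be mixed with those of Mgl2, stood at 14, 7.45, 7.39 and 8.86 CPM in P1 sham, 26.8, 30.8, 33.4 and 43.1 in P1 MI, 70.2, 69.9, 72.2 and 86 in P56 sham and 29.8, 53.6, 60.0 and 35.1 in P56 MI. It moved in the same directions, by 1.80 ± 0.22 with MI at P1 and -0.79 ± 0.22 at P56.

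Cd163l1 was at 0.817, 0.46, 0.735 and 0.561 CPM in P1 sham and at 7.22, 3.75, 4.97 and 5.8 CPM in P1 MI, and the groups did not overlap. P56 sham libraries were at 5.98, 4.44, 6.51 and 2.15 CPM and P56 MI libraries at 2.49, 0.172, 1.13 and 2.24 CPM, overlapping through sham replicate 4, the lowest of its group. MI changed Cd163l1 by 2.35 ± 0.39 (adjusted p = 0.000161) at P1 and by -1.51 ± 0.39 (adjusted p = 0.0035) at P56, with a difference of -3.87 ± 0.56 (adjusted p = 6.7e-05). The ages differed by 2.12 ± 0.39 (adjusted p = 0.000174) in sham and by -1.74 ± 0.39 (adjusted p = 0.00439) in MI, so that, like Timd4, it was lower in adult than in neonatal MI leukocytes. Of 12 gamma delta T-cell markers, 10 were in the table and 6 could be tested. They were called higher in 3 and lower in 1 after MI at P1, and lower in 6 of 6 after MI at P56. Trdc, the constant segment of the delta chain, was at 0.389, 0.293, 0.735 and 0.673 CPM in P1 sham, 3.36, 2.61, 2.68 and 2.4 in P1 MI, 2.4, 2.87, 2.48 and 1.08 in P56 sham and 0.636, 0.431, 0.438 and 0.59 in P56 MI. Its MI effects were 1.69 ± 0.22 (adjusted p = 1.32e-05) at P1 and -1.35 ± 0.22 (adjusted p = 6.3e-05) at P56, and the difference -3.04 ± 0.30 (adjusted p = 2.82e-06). The summed level of the listed gamma delta markers was 35.1 to 43.5 CPM in P1 sham, 25.3 to 40.9 in P1 MI, 37.0 to 56.1 in P56 sham and 11.7 to 22.5 in P56 MI. Their part in the Cd163l1 result was not tested.

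Cbr2, the carbonyl reductase, was at 22.2, 27.5, 23.9 and 26.9 CPM in P1 sham and at 59.4, 68.7, 74.3 and 101 CPM in P1 MI leukocytes, without overlap. In P56 sham it was at 175, 414, 461 and 433 CPM and in P56 MI at 198, 359, 217 and 252 CPM. Sham replicate 1 was far below the other 3 sham libraries and below every MI library. MI changed Cbr2 by 1.55 ± 0.26 (adjusted p = 0.000183) at P1 and by -0.47 ± 0.26 (adjusted p = 0.134) at P56. The P1 call was lost when scaled to leukocyte (0.32, adjusted p = 0.198) or macrophage genes (0.18, 0.372). Without P56 sham replicate 1 the P56 value was -0.80 and called (adjusted p = 0.00186). The difference of the MI effects was -2.03 ± 0.37 (adjusted p = 0.000496), and Cbr2 was higher at P56 both in sham (3.77 ± 0.26 (adjusted p = 6.39e-09)) and in MI (1.74 ± 0.26 (adjusted p = 0.000193)).

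Retnla, the secreted resistin-like protein, was close to absent in P1 sham leukocytes, where the 4 libraries held 3, 3, 0 and 0 reads, or 0.117, 0.126, 0 and 0 CPM. After MI at P1 it was at 3.36, 1.31, 1.41 and 50.6 CPM, and 1074 of the 1218 reads of that group lay in replicate 4. P56 sham libraries held 17.4, 30.0, 22.2 and 43.5 CPM and P56 MI libraries 3.3, 16.6, 1.6 and 4.72 CPM. The adult groups did not overlap, although MI replicate 2 nearly reached the lowest sham library. Over the summed reads of a group, relative to P1 sham, Retnla was 181 times higher in P1 MI (95% interval 82.7 to 493), 395 times in P56 sham (181 to 1077) and 88.5 times in P56 MI (40.4 to 242). These intervals cover counting error only, and the lower group rests on 6 reads. Leaving out each library in turn, an alternative chosen after seeing the data, gave a first ratio of 27.8 (12.5 to 76.9) without P1 MI replicate 4 and a last ratio of 42.9 (19.4 to 118) without P56 MI replicate 2. The fitted log2 changes, which depend on the added 0.5 CPM, were 3.20 ± 0.82 (adjusted p = 0.00485) for MI at P1, -2.40 ± 0.82 (adjusted p = 0.0193) at P56 and -5.59 ± 1.16 (adjusted p = 0.00123) for the difference. The ages gave 5.61 ± 0.82 (adjusted p = 1.75e-05) in sham and 0.02 ± 0.82 (adjusted p = 0.99) in MI. The call at P56 was lost without P56 sham replicate 4 (-2.16, adjusted p = 0.0527) or P56 MI replicate 3 (-1.96, adjusted p = 0.0649), by edgeR (-2.11, adjusted p = 0.065) and by DESeq2 (-2.16, adjusted p = 0.0784). The sign of the difference between ages in MI turned without P1 MI replicate 1 (-0.12), 2 (-0.48) or 3 (-0.46) or P56 MI replicate 2 (-0.56), and was negative by edgeR (-1.10) and DESeq2 (-1.11).

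Csf1r, the growth factor receptor shared by most macrophages and monocytes, was high in every leukocyte library and had the smallest difference between sham ages of the 10. It stood at 711, 635, 609 and 761 CPM in P1 sham and at 1319, 1442, 1664 and 1578 CPM in P1 MI, without overlap, although its P1 MI effect turned sign when scaled to leukocyte or macrophage genes. P56 sham libraries were at 1126, 1886, 1780.2 and 1926 CPM and P56 MI libraries at 973, 1582, 1066 and 995 CPM. Here the ranges overlapped, with sham replicate 1 and MI replicate 2 each nearer to the other group. MI changed Csf1r by 1.14 ± 0.19 (adjusted p = 0.000187) at P1 and by -0.54 ± 0.19 (adjusted p = 0.025) at P56, with a difference of -1.68 ± 0.27 (adjusted p = 0.000195). The sham ages differed by 1.28 ± 0.19 (adjusted p = 2.55e-05) and the MI ages by -0.40 ± 0.19 (adjusted p = 0.149). The call at P56 was lost on leaving out P56 sham replicate 2 (-0.47, adjusted p = 0.0681), 3 (-0.50, 0.0569) or 4 (-0.46, 0.0741), or P56 MI replicate 1 (-0.47, 0.0719), 3 (-0.51, 0.0551) or 4 (-0.48, 0.0703). It was also lost with quantile normalization (-0.22, adjusted p = 0.42), with only the compared libraries (-0.54, 0.101) and without the libraries over 5% 18S (-0.47, 0.0805). In MI the ages gave -0.56 (adjusted p = 0.0384) without P56 MI replicate 2.

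**Figure D3:**
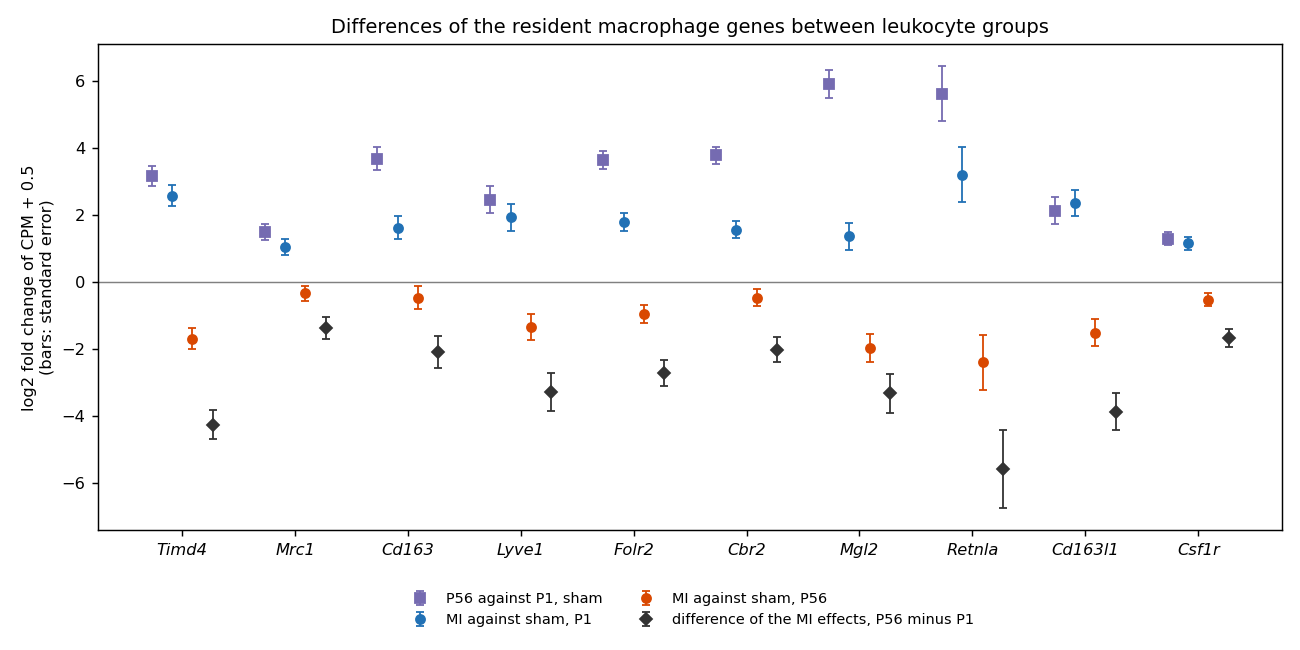
Log2 fold change ± standard error (limma, 4 libraries per group) of each gene in the leukocytes for 4 comparisons: the sham ages, MI at P1, MI at P56, and the difference of the MI effects. All 10 points lie above 0 in the first 2 comparisons (for MI at P1, Mrc1 and Csf1r do not when scaled to leukocyte or macrophage genes), and all 10 differences lie below 0, from -5.59 for Retnla to -1.38 for Mrc1.

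The order of the leukocyte groups differed between genes. For Timd4, Lyve1 and Csf1r the order of means was P56 sham, P1 MI, P56 MI and P1 sham, where only the step to P1 sham was free of overlap between neighbours. Folr2 and Cd163 had P56 sham, P56 MI, P1 MI and P1 sham, with overlap between the adult groups only. Mrc1 had the same order, with overlap also between P56 MI and P1 MI. Mgl2 was ordered P56 sham, P56 MI and P1 MI without overlap, while P1 MI and P1 sham overlapped. Among MI hearts, 4 genes were higher at P56 than at P1 (Folr2, Cd163, Cbr2 and Mgl2), beside 9.45% of genes called higher, and 2 were lower (Timd4 and Cd163l1), beside 14% called lower. Lyve1, Mrc1, Retnla and Csf1r did not pass the test in either direction.

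Because a CPM level depends on everything else in the library, the leukocyte fit was repeated on values divided by the geometric mean of 15 general leukocyte genes or, as an alternative chosen after seeing the data, of 12 general macrophage genes. The 15 leukocyte genes summed to 1883 to 2787 CPM in P1 sham, 5133 to 6206 in P1 MI, 1903 to 3548 in P56 sham and 5413 to 7005 in P56 MI, and all 15 were called higher with MI at both ages (medians 1.33 at P1 and 1.26 at P56). The scaling moved the median of all genes for MI at P1 from -0.01 to -1.14 with leukocyte genes and to -1.29 with macrophage genes, and for MI at P56 from 0.02 to -1.04 and -0.35. The median of the 10 genes for MI at P1 moved with it, from 1.69 to 0.46 and 0.32. Per leukocyte gene, 5 of the 10 genes were still higher with MI at P1: Timd4 (1.38), Lyve1 (0.69), Folr2 (0.54), Retnla (2.63) and Cd163l1 (1.42). Beside them, 86.5% of 16769 genes were called in either direction. Shares by direction were not counted under the scalings, so the counts of the 10 genes called higher or lower have no like share beside them. Cd163 at 0.37 (adjusted p = 0.282), Cbr2 at 0.32 (0.198) and Mgl2 at 0.24 (0.567) were not called, and Mrc1 (-0.21, adjusted p = 0.351) and Csf1r (-0.10, 0.647) turned sign. Per macrophage gene, 3 were still called higher: Timd4 (1.25), Retnla (2.69) and Cd163l1 (1.35). Here 89.4% of 16791 genes were called in either direction. Lyve1 stood at 0.55 (adjusted p = 0.11), Folr2 at 0.41 (0.0648), Mrc1 at -0.35 (0.0993) and Csf1r at -0.24 (0.198). At P56, 10 of 10 were lower with MI under both scalings, including the 3 not called as CPM: Cd163 at -1.67 and -0.91, Cbr2 at -1.66 and -0.90, and Mrc1 at -1.54 and -0.77. The share of all genes called in either direction at P56 was 83.4% per leukocyte gene and 44.5% per macrophage gene. The difference of the MI effects was called lower for 10 genes per leukocyte gene and for 9 per macrophage gene, where Mrc1 was at -0.42 (adjusted p = 0.193). For this difference 27.4% and 57.6% of all genes were called in either direction. All 10 were higher at P56 in sham under both, beside 52.6% and 69.9% of all genes called in either direction. Timd4 between MI ages was not called under either scaling (-1.06, adjusted p = 0.0584, and -1.01, 0.0672).

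Library by library, the ratio of a gene to the macrophage genes did not overlap between P1 MI and sham for 1 of 10 genes, Cd163l1, which was higher in MI. Between P56 MI and sham it did not overlap for 8, which were lower, and overlapped for Cd163 and Cd163l1. Between sham ages it did not overlap for 9 genes, which were higher at P56, and overlapped for Cd163l1. Ratios to the leukocyte genes did not overlap for 3 genes at P1 (Folr2, Retnla and Cd163l1), higher in MI, and for 10 at P56, lower in MI. No share of all genes was counted for these overlaps, so the numbers describe the 10 genes and do not set them apart from others. For MI at P56 the median of all genes was -1.04 per leukocyte gene and -0.35 per macrophage gene. Among the 10 genes, most were higher together with the general macrophage genes after MI at P1, and most were lower relative to them at P56.

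**Figure D4:**
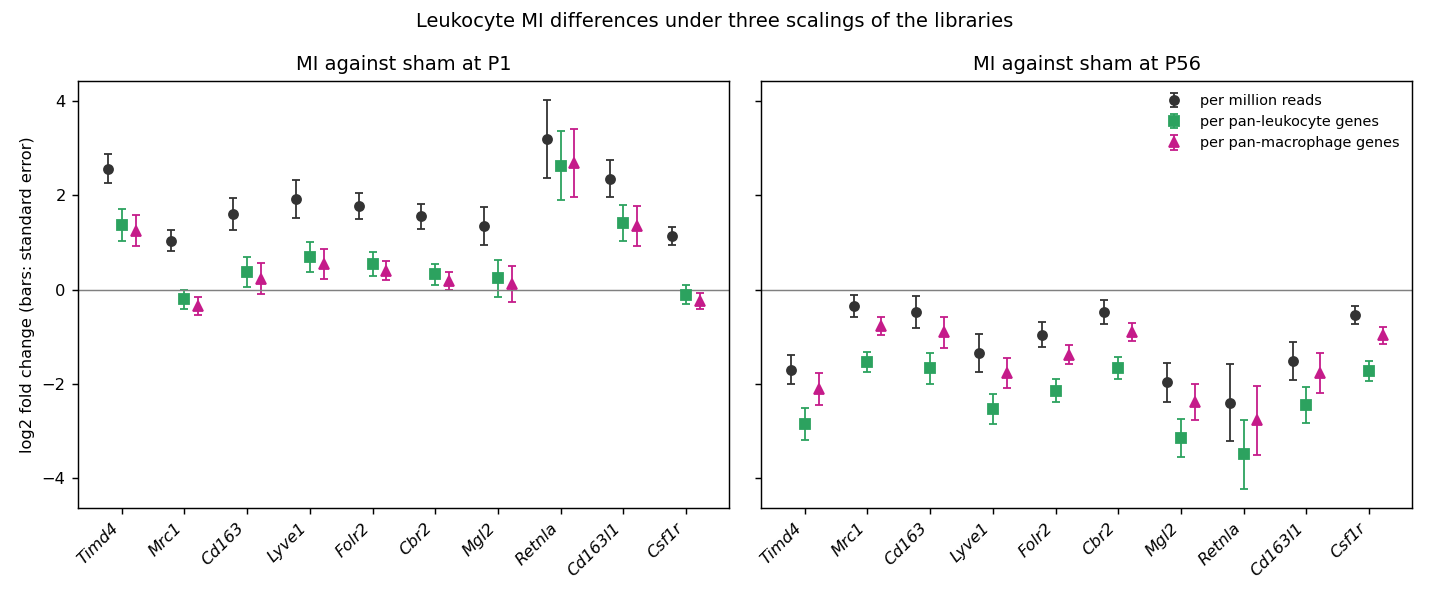
Log2 fold change ± standard error of MI against sham at P1 and at P56 for the 10 genes in leukocytes, as CPM, per pan-leukocyte gene and per pan-macrophage gene. At P1 the scaled values lie nearer to 0, where Mrc1 and Csf1r fall below it, and at P56 all 30 values lie below 0.

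Other cell types moved with the same comparisons. The 12 macrophage genes were all called higher with MI at P1 (median 1.37), whereas at P56 6 were higher, led by Mpeg1 (1.30), Fcgr1 (1.47) and Cd68 (1.28), and 3 were lower, the complement genes C1qa (-0.76), C1qb (-0.77) and C1qc (-0.78). Their sum was 1878 to 2365 CPM in P1 sham, 5248 to 6510 in P1 MI, 2751 to 5920 in P56 sham and 4669 to 5982 in P56 MI. Of 12 genes of monocytes and recruited macrophages, 7 were higher with MI at P1 (median 1.17) and 12 of 12 at P56 (median 4.80), led there by Arg1 (8.85), Fn1 (6.02) and F10 (5.66). Their sum was 1956 to 5071 CPM in P1 sham, 7828 to 17247 in P1 MI, 206 to 406 in P56 sham and 9245 to 13628 in P56 MI, so in adult hearts it was the sham libraries that were nearly free of these transcripts. Neutrophil genes summed to 1659 to 3350 CPM, 2243 to 3201, 42.1 to 105 and 243 to 875 in the same order of groups, and endothelial genes to 3734 to 4409, 440 to 790, 395 to 578 and 142 to 232. Erythroid genes were highest in P1 sham, at 529 to 787 CPM, and were at 58.0 to 114 in P1 MI, 4.31 to 39.0 in P56 sham and 23.2 to 28.4 in P56 MI. The part of these cell types in the results above was not tested.

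For Lyve1 in the leukocytes, 5 lymphatic endothelial genes were set beside it. With MI at P1, 3 were higher and 1 lower, and at P56 1 was higher, Pdpn at 2.41 ± 0.24, and 4 were lower, led by Prox1 (-2.63 ± 0.39) and Reln (-1.65 ± 0.32). Mmrn1, a protein of lymphatic endothelium and platelets, stood at 18.8, 6.2, 16.7 and 14.8 CPM in P1 sham, 38.5, 35.8, 36.5 and 56.6 in P1 MI, 40.1, 66.5, 159 and 111 in P56 sham and 19.8, 31.8, 23.5 and 13.5 in P56 MI. Prox1, the transcription factor that defines lymphatic identity and is also made by cardiomyocytes, was at 176, 43.6, 66.3 and 64.9 CPM in P56 sham leukocytes, highest in the replicate with most cardiomyocyte RNA, and at 18.6, 14.6, 12.6 and 5.59 in P56 MI. The lymphatic genes summed to 128 to 150 CPM in P1 sham, 135 to 194 in P1 MI, 210 to 475 in P56 sham and 79.9 to 160 in P56 MI, and their part in the Lyve1 values was not tested.

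A list of 20 further genes known from resident cardiac macrophages moved in the same directions in most cases. Between sham ages, 19 were higher at P56 and none lower (median 1.98, against -0.01 over all genes, of which 32.5% were higher and 34.5% lower), among them Pla2g2d (6.33), a secreted phospholipase, and Clec10a (2.96). With MI at P1, 17 were higher and none lower (median 1.30, beside 1.37 for the 12 general macrophage genes and 22.6% of all genes called higher), among them Clec10a (1.80) and Wfdc17 (1.89). With MI at P56, 12 were lower and 1 higher (median -0.68; 28.8% of all genes lower and 30.7% higher), and the smallest p-values belonged to Pla2g2d (-3.57), the iron exporter Slc40a1 (-1.48) and the growth factor Igf1 (-1.14). The difference of the MI effects was below 0 and called for 18 (median -1.82). Pla2g2d stood at 31.7, 43.5, 46.4 and 61 CPM in P56 sham and 2.31, 7.67, 2.74 and 2.28 CPM in P56 MI, against 0 to 0.308 CPM in all 8 P1 leukocyte libraries. This list and those below were chosen with results of these data known, and are given as description.

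The pathways in which the 10 genes act are given as counts beside the share of all genes tested, which was 22.6% called higher and 22.6% lower with MI at P1 and 30.7% higher and 28.8% lower at P56. No difference between these lists and the 10 genes was tested. For Csf1r, a list of 12 genes chosen around its signalling had 10 higher and 1 lower with MI at P1 and 9 higher and 1 lower at P56. The list also holds receptors of other colony-stimulating factors, and these led at P56: Csf3r (2.49), also in the neutrophil list, Csf2rb (1.81) and Csf2ra (1.07). The counts are thus not a measure of signalling by Csf1r. Its 2 ligands, chosen for mention after their values were seen, were Csf1 at 37.4, 33, 37.4 and 33.3 CPM in P56 sham and 93.1, 47.7, 40.6 and 86.7 CPM in P56 MI leukocytes, a rise of 0.83 ± 0.25, and Il34, which was at 0.727, 1.26, 1.51 and 1.64 and 0.636, 0.732, 1.24 and 0.275 CPM. The receptor itself was at -0.54 in the same comparison, a call that the alternatives given above ended. For Retnla and Mrc1, 14 tested genes of the interleukin-4 and interleukin-13 axis had 9 higher and none lower with MI at P56, led by Arg1 (8.85), Chil3 (6.82) and the receptor chain Il4ra (2.00). The other 5 did not pass the test at P56, and 5 were higher and 2 lower at P1. Retnla was at -2.40 at P56, which edgeR and DESeq2 did not call.

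For Cd163, 13 tested genes of haemoglobin and haem handling had 9 higher and none lower with MI at P1, and 10 higher and 2 lower at P56. The adult changes were led by haptoglobin, Hp (4.86), the haem oxygenase Hmox1 (2.95) and the ferritin chain Fth1 (1.42), and the 2 lower genes were Slc40a1 (-1.48) and Tfrc (-1.28). Hmox1 was at 45.6, 100.1, 102 and 100.1 CPM in P56 sham and 631, 627, 532 and 819 CPM in P56 MI, without overlap, where Cd163 did overlap. For Timd4, 16 tested genes of the uptake of dying cells split, with 7 higher and 4 lower at P1 and 6 higher and 4 lower at P56, where Havcr2 (2.19) and Havcr1 (1.10), relatives of Timd4, rose and the scavenger receptor Cd36 (-1.46) fell. Among 11 genes of hyaluronan handling, chosen for Lyve1, 4 were higher and 3 lower at P1 and 7 higher and 1 lower at P56, led by Vcan (3.29), Cemip (2.50) and Hmmr (2.13). Folate genes, chosen for Folr2, had 3 higher and 2 lower of 10 at P1 and 7 higher and 1 lower at P56, among them Tyms (1.72) and Mthfd2 (1.62), enzymes of nucleotide synthesis. Of 12 C-type lectin receptors, the family of Mrc1 and Mgl2, 7 were higher at P1 and none lower, and at P56 6 were higher, led by Clec4d (4.71) and Clec4e (5.83), and 4 lower.

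Over the 16 leukocyte libraries, the 45 pairs of the 10 genes had Pearson correlations of log2(CPM + 0.5) from 0.33 (Mgl2 and Cd163l1) to 0.98 (Folr2 and Cbr2), with a median of 0.82. These are descriptions over 4 groups of 4 libraries, which share differences of age, operation and composition. Among 10740 other genes, those most like each member were found by the same measure. Among the genes nearest to Timd4 were Gbgt1 (0.942) and Nlrc4 (0.916), and among those nearest to Lyve1 were C1qb (0.934) and Fcgrt (0.926). Folr2 was nearest to Pltp (0.986), Eps15 (0.983) and Pepd (0.981), Cd163 to Kmo (0.976), Itsn1 (0.970) and Pltp (0.960), and Cbr2 to Kmo and Itsn1 (both 0.991) and H2-DMb1 (0.980). Kmo and Itsn1 were thus among the nearest genes of both Cd163 and Cbr2. Kmo is also on a list of 10 dendritic cell markers, and the part of dendritic cells in these values was not tested. For Mrc1 the nearest were F13a1 (0.974), Maf (0.971) and Slc9a9 (0.970), for Mgl2 Hrh1 (0.989), Kbtbd11 (0.980) and Cd74 (0.975), and for Csf1r Fgd2 (0.964), Tk2 (0.962) and C1qb (0.960). Retnla was nearest to Adam33 (0.915), C6 (0.904) and Ccdc93 (0.900), and Cd163l1, with the lowest values, to Lincpint (0.794), Pgap1 (0.772) and Gpr157 (0.768).

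Outside the leukocytes the genes were low, and the 2 patterns that stood out were Lyve1 in adult fibroblasts and Cbr2 in adult cardiomyocytes. In the fibroblasts, 6 of 10 genes passed the filter on low values, the others being Timd4, Mgl2, Retnla and Cd163l1, so counts below are over those 6. Lyve1 was at 2.39, 2.87, 2.99 and 1.24 CPM in P56 sham fibroblasts and at 20.1, 19.1, 8.35 and 39.7 CPM after MI, with every MI library above every sham library. At P1 it was at 1.22, 1.67, 0.891 and 2.04 CPM in sham and 1.8, 1.82, 1.76 and 2.51 CPM after MI, and these overlapped. The MI effect on fibroblast Lyve1 was 2.81 ± 0.34 (adjusted p = 6.25e-06) at P56 and 0.36 ± 0.34 (adjusted p = 0.709) at P1, with a difference of 2.45 ± 0.48 (adjusted p = 0.0014). It was the only one of the 6 called higher with MI at P56, beside 24.8% of 15728 genes, and the only one with a difference above 0 that was called, beside 16.2% of genes. Adult leukocytes, in which Lyve1 fell with MI, went the other way. Without P56 MI replicate 2, 2 genes were called with MI at P56 and 5 for the difference, for which edgeR called 3 and DESeq2 5 in place of 2.

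The 5 lymphatic endothelial genes were all higher with MI in P56 fibroblasts (median 1.70, against -0.03 over all genes), and their differences between the ages were all above 0 and called (median 1.61). Mmrn1 was at 1.55, 0.348, 1.84 and 1.24 CPM in P56 sham and 31.4, 42.1, 22.7 and 104 CPM in P56 MI, a change of 4.71 ± 0.38 (adjusted p = 9.79e-08). Flt4, the receptor of lymphatic growth factors, changed by 2.14 ± 0.33, Reln by 1.70 ± 0.36, Prox1 by 1.09 ± 0.27 and Pdpn by 0.69 ± 0.11. Their sum was 55.7 to 70.8 CPM in P56 sham and 127 to 359 CPM in P56 MI. Replicate 4 was highest for the sum and for Lyve1, and replicate 3 lowest for both. The fibroblast gate took CD31-negative cells, and an antibody to podoplanin, the product of Pdpn, was in the staining panel. The part of lymphatic cells in the Lyve1 result was not tested. The 15 leukocyte genes summed to 17.96 to 27.7 CPM in P56 sham and 29.7 to 46.6 in P56 MI fibroblasts, and 3 of 10 tested were called higher, Cd53 (1.29, adjusted p = 0.00123), Lcp1 (1.24, 0.00201) and Itgb2 (1.12, 0.00542). Their part was not tested either.

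**Figure D5:**
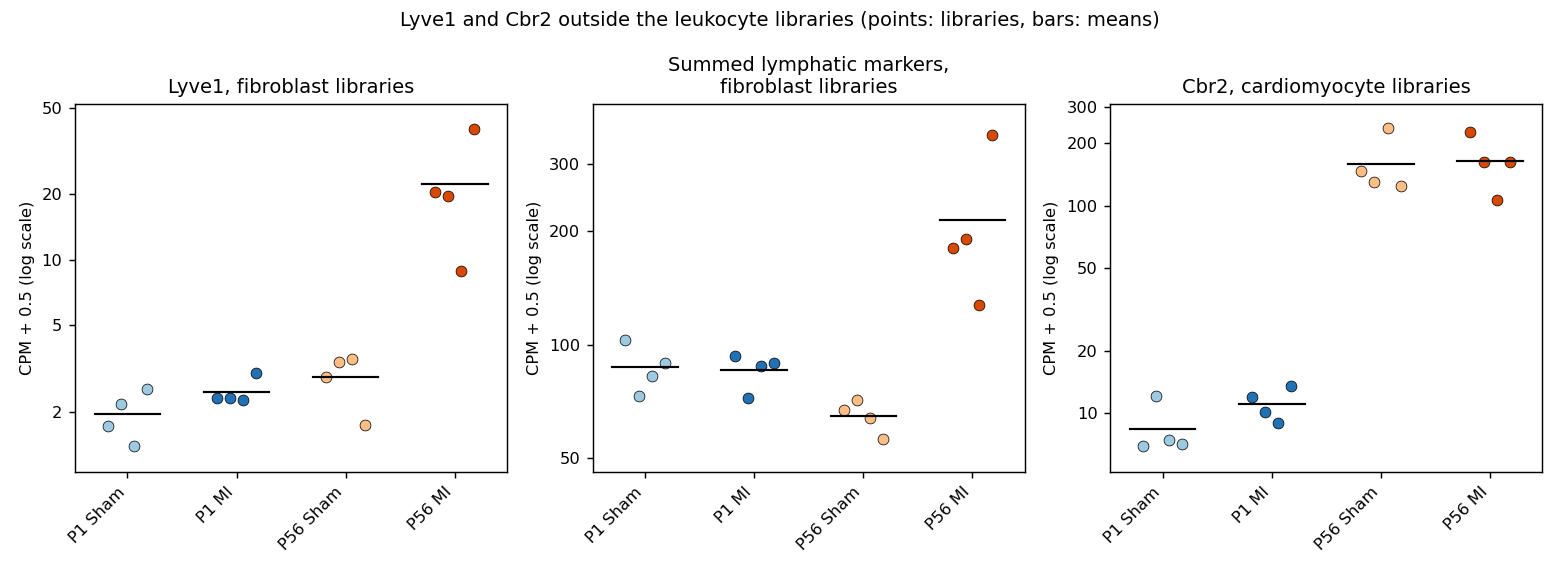
CPM by library (points) and group mean of 4 (bars) for Lyve1 in fibroblasts, the sum of 5 lymphatic endothelial genes in fibroblasts, and Cbr2 in cardiomyocytes. Lyve1 and the lymphatic sum are highest in P56 MI fibroblasts, where replicate 4 leads both, and Cbr2 lies above 100 CPM in all 8 P56 cardiomyocyte libraries and below 13 in all 8 at P1.

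Between the ages in fibroblasts, 5 of 6 tested genes were called higher in P56 sham (Folr2, Cd163, Cbr2, Mrc1 and Csf1r), beside 34.8% of genes. In MI 5 were also called (Lyve1 in place of Csf1r), beside 20.4%. Folr2, Cd163 and Cbr2 passed the filter only through P56 libraries, as they held at most 0.751, 0.266 and 0.406 CPM at P1. The filter thus favoured their being higher at P56, and their calls are description only. Among those that passed it at P1 too, Mrc1 was called in both, Csf1r in sham and Lyve1 in MI. Mrc1 was at 0.884, 0.579, 1.03 and 2.04 CPM in P1 sham and 8.85, 5.35, 17 and 7.71 CPM in P56 sham, a difference of 2.60 ± 0.32. With MI at P1, 2 of 6 were higher, beside 1.99% of genes: Csf1r, from 2.01, 2.43, 2.67 and 2.32 to 7.43, 6.18, 6.95 and 7.29 CPM (1.39 ± 0.25 (adjusted p = 0.00625)), and Mrc1, which reached 4.58, 5.4, 2.44 and 2.7 CPM (1.40 ± 0.32 (adjusted p = 0.0302)). Both P1 groups were free of overlap for these genes, at levels far below those of leukocytes. In the same comparison 1 of 10 tested leukocyte genes was higher, Lcp1 (1.73, adjusted p = 0.00407), 1 of 10 macrophage genes, Tyrobp (1.25, 0.0319), with Cd68 lower (-1.01), and 3 of 10 endothelial genes, Cdh5 (1.77, 0.0132), Kdr (1.50, 0.0105) and Flt1 (1.34, 0.0123). The leukocyte genes summed to 17.0 to 23.8 CPM in P1 sham and 28.7 to 41.3 in P1 MI, and the part of these cell types was not tested. The call for Mrc1 was lost without P1 sham replicate 1 (1.34, adjusted p = 0.0762), 2 (1.22, 0.11) or 3 (1.39, 0.0794), P1 MI replicate 1 (1.29, 0.0943) or 2 (1.22, 0.0766), without the libraries over 5% 18S (1.22, 0.0863), and with the replicate number as a block (adjusted p = 0.0648). Csf1r had a difference of the MI effects of -1.32 ± 0.35 (adjusted p = 0.0103), the 1 of 6 called below 0, beside 15.5% of genes.

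In the cardiomyocyte fraction, 8 of 10 genes passed the filter (not Retnla and Cd163l1), and Cbr2 stood apart from the rest. It was at 6.41, 11.6, 6.9 and 6.55 CPM in P1 sham and 11.4, 9.65, 8.45 and 12.9 in P1 MI, against 146, 129.6, 236 and 124 in P56 sham and 225, 161, 106 and 163 in P56 MI. All 8 adult libraries were thus above all 8 neonatal ones, and the operations overlapped at both ages. Cbr2 was 4.25 ± 0.25 (adjusted p = 6.73e-11) higher at P56 in sham and 3.86 ± 0.25 (adjusted p = 4.22e-10) in MI, or 4.04 and 4.05 without both libraries of replicate 3 at P56. Its MI effect was 0.04 ± 0.25 (adjusted p = 0.942) at P56. As a percentage of the leukocyte mean, the P56 cardiomyocyte mean of Cbr2 was 42.9% in sham and 63.9% in MI, while the other 9 genes were at 0 to 1.99% (median 1.08%) in sham and 0 to 6.56% (median 3.97%) in MI. The 15 leukocyte genes summed to 144 to 309 CPM in P1 sham, 253 to 470 in P1 MI, 35.9 to 92.4 in P56 sham and 131 to 408 in P56 MI cardiomyocytes, and their part in the Cbr2 values was not tested. Conversely, the cardiomyocyte genes in P56 sham leukocyte libraries were highest in replicate 1, in which Cbr2 was lowest. The part of cardiomyocyte RNA in the leukocyte Cbr2 values was not tested.

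Among the 8 tested genes, P56 sham cardiomyocytes had 4 higher than P1 sham (Folr2 1.11, Cd163 0.95, Cbr2 4.25 and Mgl2 2.09), beside 33.3% of 15460 genes, and 2 lower (Lyve1 -1.29 and Mrc1 -1.07), beside 37%. Mgl2, with at most 0.676 CPM at P1, passed the filter only through P56 libraries, so its calls between the ages are description only. Lyve1 was at 10.0, 8.54, 12.5 and 11.3 CPM in P1 sham and 1.12, 6.98, 10.8 and 2.45 in P56 sham, where replicate 3, which stood apart, overlapped the P1 range. In MI, 4 were higher at P56 (Folr2, Cd163, Cbr2 and Mgl2; 37.7% of genes) and Lyve1 was lower (-1.42 ± 0.42; 34.6% of genes). Calls near the threshold rested on single libraries: Cd163 between sham ages was lost without P1 sham replicate 2 (0.77, adjusted p = 0.108) or 4 (0.94, 0.064) or P56 sham replicate 2 (0.78, 0.106) or 3 (0.54, 0.173), and Mrc1 without P56 sham replicate 1 (-0.82, 0.0557) or 4 (-0.86, 0.0509). Without replicate 3 at P56 in both operations, Lyve1 was -1.74 and Mrc1 -1.38 between sham ages. No gene was called for MI at P1 by limma (0.343% of genes in either direction), edgeR or DESeq2, although Timd4, Mrc1 and Csf1r had unadjusted p-values under 0.05. With MI at P56 only Mrc1 was called (1.15 ± 0.36 (adjusted p = 0.0474); 8.66% of genes higher), from 10.6, 24.6, 34.9 and 11.6 to 49.4, 23.4, 74 and 31.9 CPM with overlap. All 15 leukocyte genes were called higher in the same comparison (median 2.24), and their part in the Mrc1 value was not tested. It was not called by edgeR or DESeq2 or in 12 of 16 fits that left out 1 library (adjusted p from 0.0556 to 0.166), all but those without P1 sham replicate 2, P56 sham replicate 2 or 3 or P56 MI replicate 2. Leaving out both libraries of replicate 3 gave 1.18 (adjusted p = 0.0104) and 4 genes called, as did leaving out P56 sham replicate 3 alone, while 2 were called without P56 MI replicate 2. For the difference of the MI effects none was called by any of the 3 tools or had an unadjusted p under 0.05 (1.75% of genes). Cd163l1 was at 0.2, 0.423, 0.34 and 0.761 CPM in P1 sham and 0.961, 1.03, 0.762 and 0.943 in P1 MI cardiomyocytes, and had no read in any of the 8 libraries at P56, which allows up to the floor of 3 reads.

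In the endothelial cells, 7 of 10 genes passed the filter (not Timd4, Retnla and Cd163l1). Lyve1 was the one nearest to the leukocyte level, at 12.1, 13.3, 14.4 and 15.3 CPM in P1 sham, 31.1, 38, 22.1 and 26.7 in P1 MI, 14.2, 23.9, 19.2 and 9.02 in P56 sham and 23.8, 12.3, 21.7 and 23 in P56 MI. The P1 groups did not overlap and the P56 groups did. The MI effect on endothelial Lyve1 at P1 was 1.05 ± 0.25 (adjusted p = 0.0804), not called by limma or edgeR, and none of the 7 genes was called there, beside 0.216% of 15705 genes in either direction. Lyve1 had an unadjusted p under 0.05, and DESeq2 called 1 gene, as did the fits without both P1 libraries of replicate 4, without P1 sham replicate 4 alone, and without P56 MI replicate 2. With MI at P56, 2 were higher, beside 12.5% of genes: Mrc1, from 16.2, 14.6, 14.3 and 15.9 to 40.1, 34.2, 49.9 and 24 CPM without overlap (1.21 ± 0.29 (adjusted p = 0.00757)), and Cd163, from 4.1, 2.68, 3.57 and 3.72 to 8.5, 8.91, 7.55 and 4.54 CPM (0.94 ± 0.32 (adjusted p = 0.0476)). Leukocyte and macrophage genes rose in the same comparison: 12 of 14 tested leukocyte genes were higher (median 1.65), among them Itgb2 (2.46), Cd53 (2.26) and Laptm5 (1.88), and 7 of 12 macrophage genes (median 1.41), among them Mpeg1 (2.47), Tyrobp (2.01) and Adgre1 (1.94). The leukocyte genes summed to 54.3 to 70.3 CPM in P56 sham and 106 to 232 in P56 MI, and their part in the Mrc1 and Cd163 values was not tested. The Cd163 call was lost in 12 of 16 fits that left out 1 library (adjusted p from 0.055 to 0.119), all but those without P1 sham replicate 1 or 4, P1 MI replicate 3 or P56 MI replicate 4. It was also lost by edgeR and DESeq2, and without both P1 libraries of replicate 4 it was kept (adjusted p = 0.00859) and 4 genes were called, as they were without P1 sham replicate 4 alone. The difference of the MI effects was called for none by limma, edgeR or DESeq2 (5.41% of genes), and Mrc1 had an unadjusted p under 0.05.

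Between sham ages, 5 of the 7 were higher in P56 endothelial cells (Folr2 1.44, Cd163 2.20, Cbr2 0.79, Mgl2 1.43 and Csf1r 1.47), beside 33.6% of genes, and between MI ages 6 were (these and Mrc1), beside 30.6%. Folr2, Cd163 and Mgl2 passed the filter on low values only through P56 libraries. At P1 Mgl2 held at most 0.258 CPM, and Folr2 and Cd163 exceeded 1 CPM only in sham replicate 4. The filter thus favoured their being higher at P56, and their calls are description only. Csf1r was at 1.46, 2.1, 2.63 and 16.7 CPM in P1 sham and 13.9, 7.51, 9.71 and 13.3 in P56 sham. P1 sham replicate 4, one of the libraries that stood apart, was the highest of all 8, and Cd163 and Mrc1 were also highest in it among P1 sham libraries. The fold change of Csf1r was 1.47 ± 0.51 (adjusted p = 0.0188) with these libraries and 2.17 (adjusted p = 4.8e-05) without both P1 libraries of replicate 4. It was not called without P1 sham replicate 1 (1.12, 0.0741), 2 (1.26, 0.0605) or 3 (1.35, 0.0509), nor by edgeR (0.97, adjusted p = 0.153) or DESeq2 (0.91, 0.219). In MI, Csf1r was 1.49 ± 0.51 (adjusted p = 0.0209) higher at P56, and not called without P1 MI replicate 3 (1.23, 0.0689) or 4 (1.38, 0.0527) or P56 MI replicate 3 (1.30, 0.0608). This call was also lost by DESeq2 (1.43, adjusted p = 0.0536). The 15 leukocyte genes summed to 77.7 to 110 CPM in P1 sham and 100.3 to 137 in P1 MI endothelial cells, and their part in these values was not tested.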

How the data were processed

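Total RNA of 64 libraries was depleted of ribosomal RNA (Ribo-Zero Gold), made into stranded TruSeq libraries and read as 50-base single ends on a HiSeq 2500, per the labels' protocols. Trimmomatic, HTSeq, STAR and edgeR are the tools listed in the submitters' processing notes, which give no versions and list the builds GRCm38, mm10 and GRCh38 with no role for each; the strand setting used in counting is not given there. The deposited table holds 1 normalised signal per gene and library, called CPM by the authors, and the gene length in bases. In every library 100% of values were whole multiples, within 0.01, of the value of 1 read, so reads were recovered. One row without a symbol (0.00206 to 0.0157% of reads) was left out.

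Each population was fitted with limma 3.58.1 (R 4.3.3) on log2(CPM + 0.5), with a variance trend, over its 16 libraries in 4 groups and without a replicate block, for genes with at least 1 CPM in 4 libraries. Two-sided p-values were adjusted by Benjamini-Hochberg over all genes tested, and 0.05 was the threshold. A fold change on this scale understates that of low genes. The procedure was tested on simulated data. As alternatives added after seeing the data, edgeR 4.0.16 and DESeq2 1.42.0 were run on the recovered reads and values were scaled to macrophage genes; in the leukocytes edgeR called 10866 of 16238 genes between sham ages, 7181 for MI at P1, 9712 for MI at P56, 7173 for the difference and 3843 between MI ages.

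The members and all gene lists were chosen with earlier results of these data known. All 10 members are named; from each list, up to 3 called genes with the smallest adjusted p in the comparison, or the 2 of highest mean where none was called; and for each member the 3 genes with the highest correlation to it. Some genes picked by this rule are not reported here. The symbols Tcrg-V6, Tcrg-V4, Ccl21a, Hba-a2, Retn and Retnlb of the lists were not matched in the table. A value near 0 is read against 3 reads of its library, which covers counting error only.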

Additional observations from a re-analysis of the deposited data

Results flagged for a closer look

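Single libraries lay apart from the other 3 of their group in 11 of 124 sets of 4 values checked, where chance gives about 1 in 20. Among leukocytes these were Folr2 at 218 CPM and Csf1r at 1582 CPM in P56 MI replicate 2, Cbr2 at 175 CPM in P56 sham replicate 1, the library with most cardiomyocyte RNA, and Retnla at 50.6 CPM in P1 MI replicate 4. In endothelial cells they were Cd163 at 1.50 CPM and Csf1r at 16.7 CPM in P1 sham replicate 4, a library that stood apart as a whole, and Cbr2 at 6.74 CPM in P56 sham replicate 3. In cardiomyocytes, Cbr2 was at 11.6 CPM and Mrc1 at 24.1 CPM in P1 sham replicate 2, a library with over 5% 18S reads. In fibroblasts, Lyve1 was at 2.51 CPM in P1 MI replicate 4 and Cbr2 at 0.272 CPM in P1 sham replicate 4. This Cbr2 value was 2 reads, as in every library of that group, and lay below the floor of 3 reads (0.409 CPM) of that shallow library. It therefore shows a difference in depth and not in level.

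The effect of MI differed between the ages, by the limma test of the difference P56 minus P1 on the log2 scale, for each member in leukocytes: Timd4 by -4.26, Lyve1 by -3.28, Folr2 by -2.73, Cd163 by -2.09, Cbr2 by -2.03, Mrc1 by -1.38, Mgl2 by -3.32, Retnla by -5.59, Cd163l1 by -3.87 and Csf1r by -1.68. In fibroblasts it differed for Lyve1 by 2.45 and for Csf1r by -1.32.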

How the results depend on the processing

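Over the alternatives, 2605 of the single-gene values kept their direction and their side of the threshold, 103 were no longer called, 11 became called and 12 turned sign. Counts of called members stayed within 1.5 times in 634 cases and moved further in 70. In the leukocytes, 10 members higher with MI at P1 became 5 with pan-leukocyte scaling and 3 with pan-macrophage scaling, where Mrc1 turned to -0.21 and -0.35 and Csf1r to -0.10 and -0.24. Of all genes, 86.5% and 89.4% were called in either direction under these scalings, beside 45.2% as CPM, and the shares called higher under them were not counted. Retnla between MI ages turned to -0.037 with a pseudocount of 1, -1.10 with edgeR and -1.11 with DESeq2. On leaving out 1 library it ranged from -0.56 to 1.13, and Mrc1 from -0.0066 to 0.22. In endothelial cells, the 2 members called with MI at P56 became 1 with a pseudocount of 0.1, no filter, a filter of 5 CPM, median-of-ratios or quantile scaling, no variance trend, a fold of at least 2 or edgeR, and 4 without the libraries that stood apart; the 0 called at P1 became 1 with only the compared libraries, without those that stood apart, or with DESeq2; and a filter of 5 CPM left 2 of 5 between sham ages and 3 of 6 between MI ages. In fibroblasts, that filter left 2 of 5 called in both age comparisons, the compared libraries alone gave 2 of 5 between MI ages, leaving out libraries over 5% 18S gave 1 of 2 for MI at P1, no filter gave 2 in place of 1 for MI at P56, and DESeq2 gave 5 in place of 2 for the difference. In cardiomyocytes, no filter gave 1 in place of 0 for MI at P1. There the 1 called with MI at P56 became 0 with a pseudocount of 1, no filter, a filter of 5 CPM, median-of-ratios or quantile scaling, no trend, only the compared libraries, no libraries over 5% 18S, edgeR or DESeq2, and 4 without the libraries that stood apart. The cause of these moves was not tested, except that stricter filters test fewer members. Leaving out 1 library at a time gave, for sham ages, MI at P1, MI at P56, the difference and MI ages in turn, 10 to 10, 10 to 10, 5 to 9, 10 to 10 and 5 to 7 members in leukocytes, 4 to 5, 0 to 1, 1 to 4, 0 to 0 and 4 to 6 in endothelial cells, 5 to 5, 1 to 2, 1 to 2, 2 to 5 and 5 to 5 in fibroblasts, and 5 to 6, 0 to 0, 0 to 4, 0 to 0 and 5 to 6 in cardiomyocytes. Members enriched in leukocytes stayed at 8, 10, 10 and 9. Within a population, libraries with the same replicate number did not deviate together: of 24 pairs of groups none had every correlation over 0.1 (range -0.43 to 0.36). The numbers were not taken as pairs. This check cannot show whether same-numbered libraries of different populations came from the same hearts, which was not checked. The count of members enriched in leukocytes treated those libraries as unpaired. With the replicate number as a block the leukocyte counts stayed at 10, 10, 7, 10 and 6, and only the endothelial count for MI at P56 (1 in place of 2) and the fibroblast count for MI at P1 (1 in place of 2) moved. Depth limits Retnla in P1 sham leukocytes, whose libraries hold 0 to 3 reads.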
